A study of Rattus norvegicus with 40 samples.

Results

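Complement C1q and C3 transcripts were followed in microglia, the immune cells resident in brain and spinal cord, in adult rat offspring of dams exposed to intermittent hypoxia during pregnancy. The genes of the 3 C1q chains and C3 were chosen by Ensembl ID, with a rule that uses no measured value, as 4 of the 32883 genes in the deposited count table. The IDs were C1qa (ENSRNOG00000012807), ENSRNOG00000012804, ENSRNOG00000012749 and C3 (ENSRNOG00000046834), and all 4 passed the filter on low counts in every fit. The selection rule names ENSRNOG00000012804 as C1qb and ENSRNOG00000012749 as C1qc. The table holds IDs alone, and 0 of the 47357 rows of the reference gene table carried an Ensembl ID, so these names were not checked. Which of the pair is the B chain and which the C chain was not settled, and both are called by ID here.

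Microglia were pulled from tissue with magnetic beads carrying an antibody against CD11b, from the medulla and from the cervical spinal cord of 8-week-old Sprague Dawley rats. The dams of the hypoxia groups breathed 10.5% and 21% oxygen in alternation, and those of the normoxia groups 21% throughout, on gestational days 10 to 21, in daily sessions of 8 hours with 15 cycles in each hour. The offspring were born and raised in normal air. In each region there were 5 libraries each of female hypoxia, female normoxia, male hypoxia and male normoxia offspring, 40 in all, from 20 animals that each gave both regions. A male and a female were taken per litter. CD11b is also carried by other macrophages and by blood myeloid cells, and a check of the cells against microglial and other cell type markers could not be made without gene symbols. In such bulk samples fewer cells of a type and less RNA per cell cannot be told apart.

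C1q is the recognition molecule of the classical complement pathway and is assembled from A, B and C chains, the products of C1qa, C1qb and C1qc. Bound to a surface, it starts a cascade that cleaves C3, the protein on which all complement pathways meet, and fragments of C3 mark the surface for uptake by phagocytes. In the central nervous system microglia are the main source of C1q, and in mice C1q and C3 tag synapses that microglia remove, through a receptor of which CD11b is a part.

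The promoters are shown because the C1q genes sit side by side and their transcripts moved together in the cord. In RefSeq the C1q genes lie on chromosome 5 in the order C1qb, C1qc, C1qa, with 0 other genes between them, and C3 lies on chromosome 9. Promoter sequences were matched by symbol for 3 of the 4 genes in RefSeq's table of the GRCr8 build, each from 250 bases before to 50 bases after the start of the gene, written 5′ to 3′ on the gene's strand. Capitals mark GGAAGT, a core bound by ETS factors such as PU.1, in the C1q genes on either strand, and a match to TTGCNNAA, a form of the C/EBP site, in C3; both motifs were searched on both strands of all 3 sequences.
C1qa, chr5:154419884-154420183, minus strand: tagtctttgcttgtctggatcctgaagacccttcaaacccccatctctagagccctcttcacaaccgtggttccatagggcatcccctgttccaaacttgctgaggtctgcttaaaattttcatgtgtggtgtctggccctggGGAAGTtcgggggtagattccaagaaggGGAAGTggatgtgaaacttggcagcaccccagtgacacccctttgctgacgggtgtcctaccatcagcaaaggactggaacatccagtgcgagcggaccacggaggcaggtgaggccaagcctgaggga
C1qb, chr5:154407778-154408077, minus strand: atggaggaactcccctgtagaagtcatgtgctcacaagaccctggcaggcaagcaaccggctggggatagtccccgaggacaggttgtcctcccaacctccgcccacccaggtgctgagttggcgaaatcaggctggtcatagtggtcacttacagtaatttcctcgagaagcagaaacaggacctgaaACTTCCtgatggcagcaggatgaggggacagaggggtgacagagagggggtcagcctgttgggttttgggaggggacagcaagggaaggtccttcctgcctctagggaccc
C3, chr9:2201290-2201589, minus strand: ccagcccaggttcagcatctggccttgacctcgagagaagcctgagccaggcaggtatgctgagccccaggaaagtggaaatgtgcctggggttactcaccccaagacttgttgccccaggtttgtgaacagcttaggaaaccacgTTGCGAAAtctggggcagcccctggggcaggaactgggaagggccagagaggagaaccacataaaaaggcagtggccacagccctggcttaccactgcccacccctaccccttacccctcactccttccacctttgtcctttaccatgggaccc
C1qa held GGAAGT at bases -107 to -102 and -79 to -74 from the start, and C1qb held it on the other strand, as ACTTCC, at bases -61 to -56. The C3 match, TTGCGAAA, lay at bases -104 to -97. Of 33469 promoters of this length, 22.6% held GGAAGT and 10.6% held TTGCNNAA on either strand, and no sequence shown held both. These matches describe letters and were not tested as binding sites.

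Library totals ran from 6061346 to 24039411 reads assigned to genes. Depth moved with group in the cord, where female hypoxia libraries averaged 17800000 ± 2820000 reads, female normoxia 10500000 ± 1920000, male hypoxia 10100000 ± 1550000 and male normoxia 13200000 ± 2750000 reads (SD, n = 5 each). In the medulla male normoxia libraries were deeper, at 20300000 ± 2500000 reads, than male hypoxia libraries, at 12300000 ± 1260000 reads. Female hypoxia medullas averaged 13400000 ± 4940000 and female normoxia medullas 13500000 ± 2430000 reads (SD, n = 5 each). The part of depth in the medulla and region results was not tested. The shallowest library, female hypoxia medulla replicate 3, stood apart from the others, with counts in 13379 genes. Its complement genes stood apart too, at 529.9 CPM (counts scaled to library totals of 1000000 reads) for C1qa, 489 for ENSRNOG00000012804, 3863 for ENSRNOG00000012749 and 1107 for C3. Calls and levels that changed without this library are given with and without it.

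All 4 transcripts were abundant. In the 39 libraries other than that one, C1qa ranked 9 to 45 among all genes by count, ENSRNOG00000012804 35 to 154, ENSRNOG00000012749 28 to 84 and C3 2 to 31. Ranks and CPM are not scaled by transcript length, so levels were not compared between genes. In the cord the C1q chains together took 0.637% ± 0.055 of all counts in female hypoxia, 0.449% ± 0.067 in female normoxia, 0.534% ± 0.061 in male hypoxia and 0.643% ± 0.081 in male normoxia (SD, n = 5 each). C3 took 0.511% ± 0.13 of counts in female hypoxia, 0.659% ± 0.16 in female normoxia, 0.661% ± 0.073 in male hypoxia and 0.799% ± 0.11 in male normoxia cords. Among the cord groups the mean share of C1q was thus lowest in female normoxia, and that of C3 in female hypoxia.

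**Figure D1:**
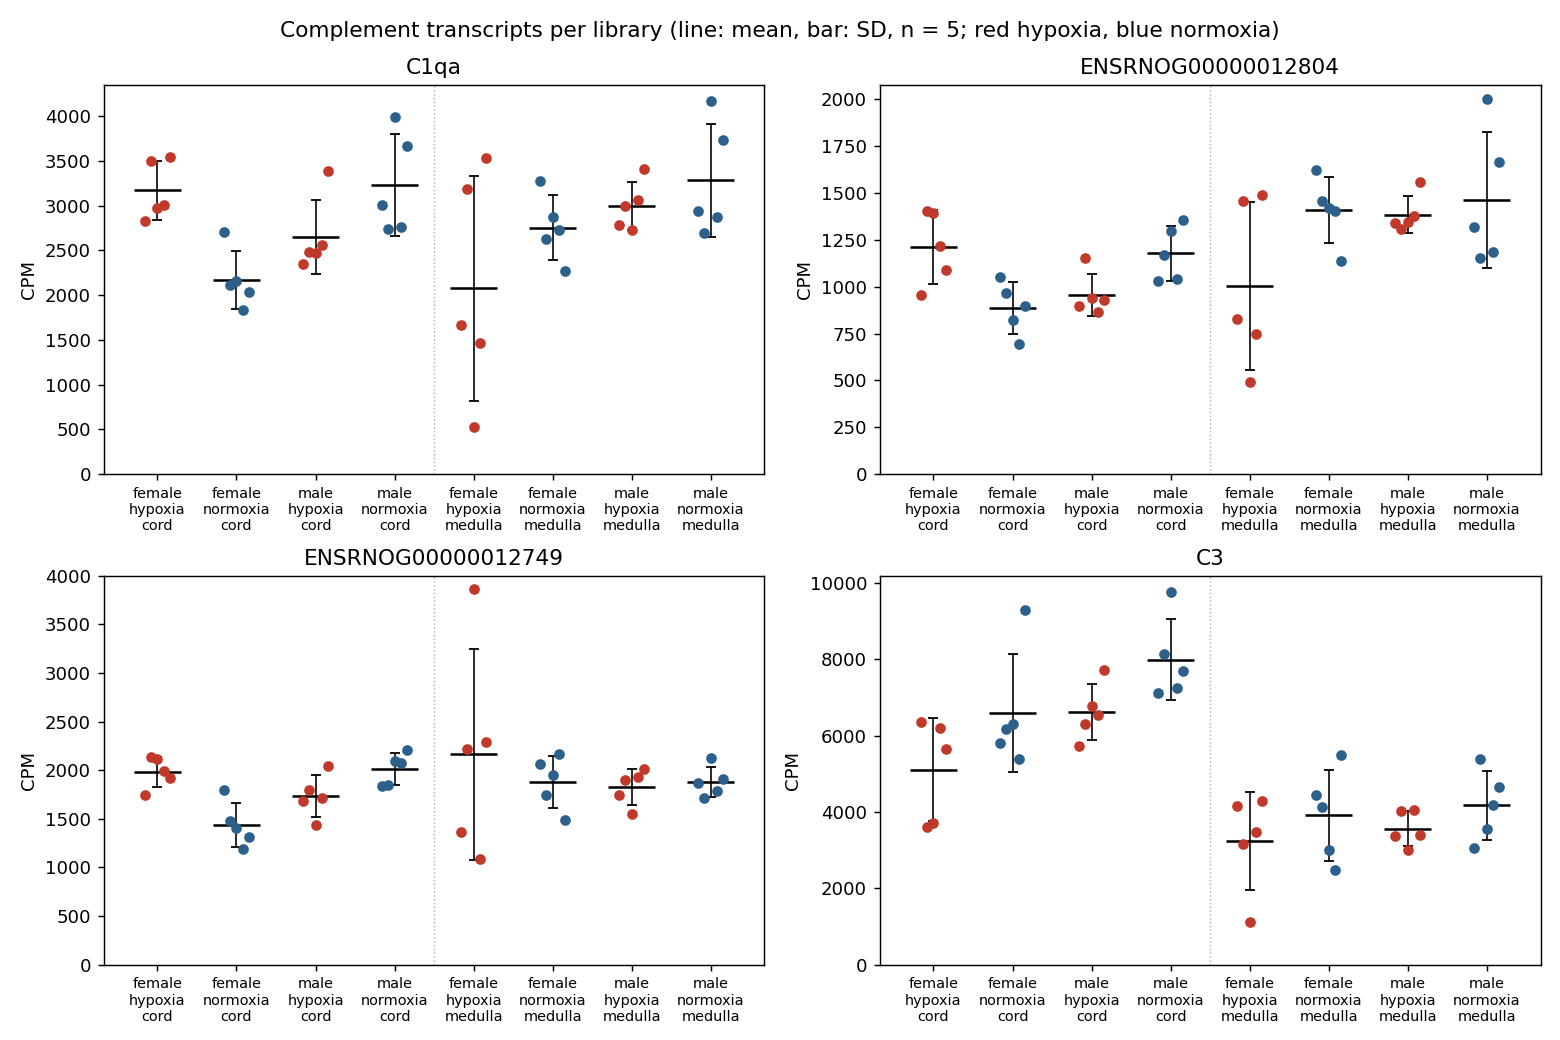
Level in CPM of each complement gene in every library, by group, with cord groups left of the dotted line and medulla groups right of it (points are libraries, lines means and bars SD, n = 5). C1qa averaged 3172 CPM in the female hypoxia cord and 2171 CPM in the female normoxia cord, and every C3 group mean in the cord (5107 to 7985 CPM) lies above every one in the medulla (3237 to 4169 CPM).

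Ordered by mean, C1qa ran from 3283 ± 635 CPM in the male normoxia medulla through 3234 ± 567 in the male normoxia cord, 3172 ± 332 in the female hypoxia cord, 2998 ± 273 in the male hypoxia medulla, 2756 ± 366 in the female normoxia medulla, 2651 ± 419 in the male hypoxia cord and 2171 ± 322 in the female normoxia cord to 2077 ± 1260 in the female hypoxia medulla (SD, n = 5 each). Without replicate 3 the female hypoxia medulla averaged 2464 ± 1050 CPM (n = 4), and the female normoxia cord then came last. The library ranges of every neighbouring pair in this order overlapped, for C1qa and for the other 3 genes. ENSRNOG00000012804 had its highest mean in the male normoxia medulla, 1465 ± 363 CPM, and its lowest in the female normoxia cord, 886.6 ± 137 CPM. The order of ENSRNOG00000012749 was led by the female hypoxia medulla at 2164 ± 1080 CPM, which drops to 1739 ± 605 CPM (n = 4) without replicate 3, and closed with the female normoxia cord at 1437 ± 229 CPM. For C3 the 4 cord groups came before the 4 medulla groups, from 7985 ± 1070 CPM in the male normoxia cord to 3237 ± 1280 CPM in the female hypoxia medulla. Without replicate 3 that last group averaged 3770 ± 533 CPM (n = 4), and the male hypoxia medulla, at 3564 ± 453 CPM, came last.

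In the female cord, gestational hypoxia went with higher levels of all 3 C1q chains, while C3 did not pass the test. Genes with an adjusted p under 0.05 are referred to as called. C1qa had 2825, 3504, 2972, 3010 and 3550 CPM in female hypoxia cords, against 2704, 2110, 2159, 1839 and 2040 CPM in female normoxia cords. Every hypoxia library lay above every normoxia library. Here and below, the share of all genes with libraries separated in this way was not counted. By edgeR, 43.3% of all genes had an unadjusted p under 0.05 in this comparison. The log2 fold change was 0.70 (SE 0.13), with an adjusted p of 0.000578 by edgeR's quasi-likelihood test with Benjamini-Hochberg adjustment over all 13593 genes tested. The fitted fold, 1.63, uses TMM scaling factors, which averaged 0.928 in female hypoxia cords and 1.03 in female normoxia cords, and it is therefore larger than the ratio of the mean CPM values.

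ENSRNOG00000012804 had 953.5, 1406, 1395, 1217 and 1088 CPM in female hypoxia cords, against 1052, 966.7, 823.9, 694.6 and 895.8 CPM in female normoxia cords. The hypoxia libraries exceeded all normoxia libraries in 4 of 5 cases, and hypoxia replicate 1 lay within the normoxia range. It rose by 0.61 (SE 0.14) on the log2 scale, with an adjusted p of 0.00235 in edgeR. ENSRNOG00000012749 had 1750, 2134, 2116, 1994 and 1920 CPM in female hypoxia cords, against 1794, 1482, 1410, 1188 and 1309 CPM in female normoxia cords. Again hypoxia replicate 1 lay within the normoxia range and the other 4 lay above it. It rose by 0.62 (SE 0.12), with an adjusted p of 0.000575 in edgeR.

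Of the 4 complement genes, 3 were thus called higher in the female hypoxia cord, where 32.8% of all genes tested were called and 18.2% were called higher. Their median log2 fold change with C3 included was 0.62, against -0.01 over all genes. With libraries scaled by their totals alone, the median of all genes moved to -0.16 and the calls over all genes split into 1665 higher and 3212 lower, against 2468 higher and 1990 lower with TMM factors. The C1q chains were still called under that scaling, at log2 fold changes of 0.55 for C1qa, 0.45 for ENSRNOG00000012804 and 0.46 for ENSRNOG00000012749. Depth and scaling factors moved with exposure in these libraries, and their part in the result was not tested.

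C3 had 6353, 3606, 3713, 6204 and 5657 CPM in female hypoxia cords, against 5812, 6163, 6304, 5373 and 9295 CPM in female normoxia cords. Of the hypoxia libraries 2 lay below all normoxia libraries, 3 lay within their range, and the highest normoxia value came from replicate 5. The log2 fold change was -0.23 (SE 0.16) and the gene was not called, with an adjusted p of 0.287 in edgeR. The ratio of C3 to C1qa counts, which does not depend on library scaling, was 2.25, 1.03, 1.25, 2.06 and 1.59 in female hypoxia cords, against 2.15, 2.92, 2.92, 2.92 and 4.56 in female normoxia cords. Of the 5 hypoxia ratios 4 lay below all normoxia ratios. The geometric means were 1.57 in female hypoxia and 3.00 in female normoxia cords, a log2 difference of -0.94, with an exact two-sided permutation p of 0.0159 that became 0.19 when adjusted over the 12 ratio tests (4 groups of sex and region, 3 genes). With 5 libraries against 5 the smallest p such a test can give is 0.00794. For ENSRNOG00000012804 and ENSRNOG00000012749 the ratios to C1qa in the female cord differed by -0.10 and -0.08 on the log2 scale, with exact permutation p values of 0.413 and 0.318 (0.708 adjusted, both).

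**Figure D2:**
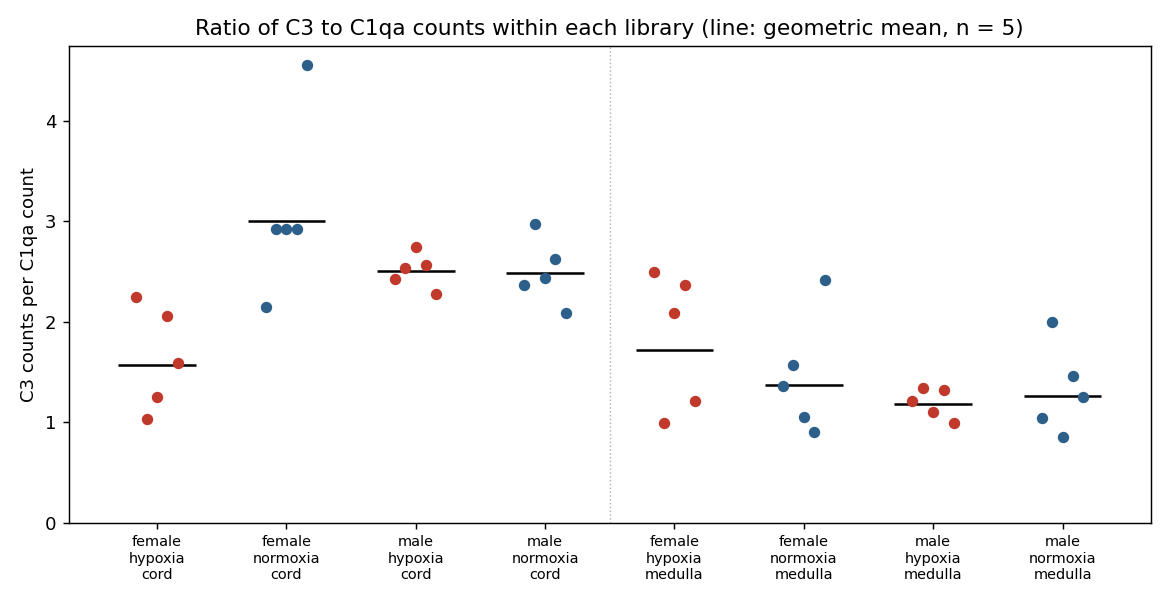
Ratio of C3 to C1qa counts within each library, by group (points are libraries, lines geometric means, n = 5). The female hypoxia cord, at 1.57 C3 counts per C1qa count, lies below the female normoxia cord at 3.00, and the male cord groups are at 2.50 and 2.48.

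In the male cord no complement gene was called by exposure. C1qa had 2353, 2481, 2474, 2556 and 3389 CPM in male hypoxia cords, against 3009, 2740, 3993, 2759 and 3668 CPM in male normoxia cords. Of the 5 hypoxia libraries 4 lay below all normoxia libraries, and replicate 5 lay within their range. The log2 fold change was -0.30 (SE 0.13), with an adjusted p of 0.764 in edgeR. ENSRNOG00000012804 averaged 955.7 ± 114 CPM in male hypoxia and 1179 ± 146 CPM in male normoxia cords, ENSRNOG00000012749 1735 ± 220 CPM in male hypoxia and 2012 ± 164 CPM in male normoxia cords (SD, n = 5 each). C3 averaged 6610 ± 733 CPM in male hypoxia and 7985 ± 1070 CPM in male normoxia cords. Their log2 fold changes were -0.32, -0.23 and -0.29, and in each the hypoxia libraries lay below all normoxia libraries in 4 of 5 cases. None of the 4 genes was called, nor was any other gene by edgeR (0% of 13593, with 841 genes at an unadjusted p under 0.05, 1 gene called by DESeq2 and 0 by limma voom).

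The exposure difference itself differed between the sexes in the cord. The interaction, female response minus male response, was 1.00 (SE 0.19) for C1qa, 0.93 (SE 0.20) for ENSRNOG00000012804 and 0.85 (SE 0.17) for ENSRNOG00000012749 on the log2 scale. The edgeR adjusted p values were 0.00132, 0.00274 and 0.00177. C3 had 0.06 (SE 0.23) and an adjusted p of 0.881. Of the 4 complement genes 3 were called, against 23.2% of all genes, with 13.2% of all genes called in the positive direction. In a fit of all 40 libraries the interaction of C1qa had an adjusted p of 0.0601 and that of ENSRNOG00000012749 0.0725, while ENSRNOG00000012804 stayed called. Under scaling by library totals alone the median of all genes in this interaction was -0.18, and all 3 chains stayed called.

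**Figure D3:**
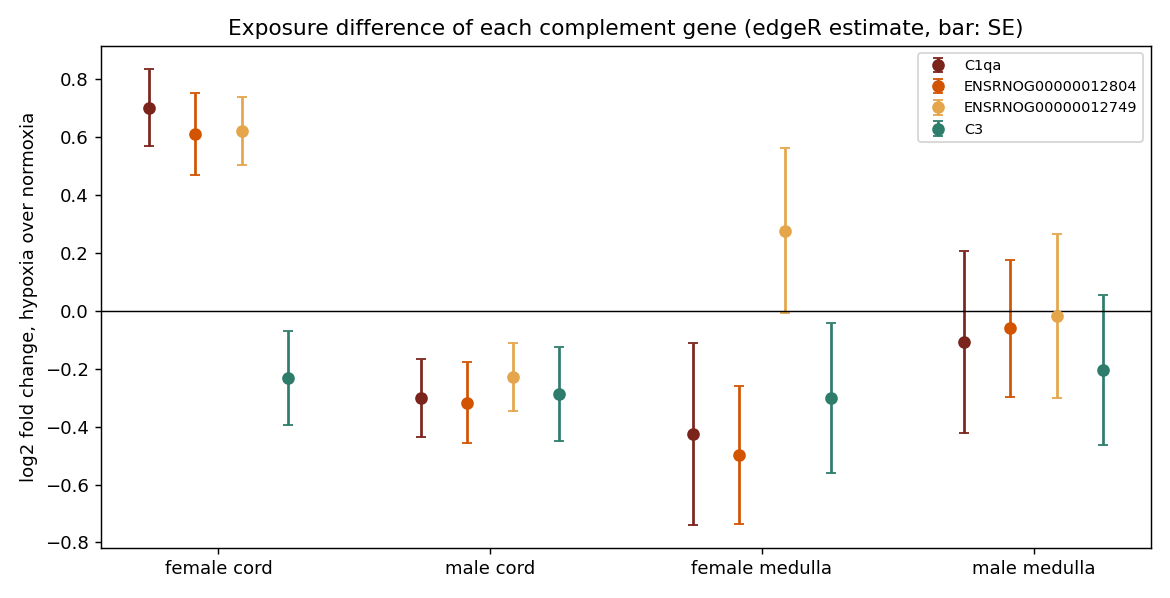
Log2 fold change of each complement gene, hypoxia over normoxia, in each sex and region (points are edgeR estimates, bars SE). The C1q chains lie between 0.61 and 0.70 in the female cord and between -0.32 and -0.23 in the male cord; in the female medulla the bars are wider and ENSRNOG00000012749 stands above 0.

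No complement gene was called by exposure in the medulla of either sex. C1qa had 1661, 3192, 529.9, 1467 and 3537 CPM in female hypoxia medullas, against 3279, 2629, 2869, 2731 and 2273 CPM in female normoxia medullas. The hypoxia libraries were spread over a wider range than the normoxia libraries, with 3 below all of them and 1 above. The log2 fold change was -0.42 (SE 0.31), and -0.18 without replicate 3 of the hypoxia group. ENSRNOG00000012804 had 825.8, 1458, 489, 746.7 and 1492 CPM in female hypoxia medullas, against 1623, 1456, 1420, 1407 and 1137 CPM in female normoxia medullas, with 3 hypoxia libraries below all normoxia libraries. Its log2 fold change was -0.50 (SE 0.24), with an edgeR adjusted p of 0.324, and -0.34 without replicate 3. The value of ENSRNOG00000012749, 0.28 (SE 0.28), turned to -0.14 without replicate 3. C3 averaged 3237 ± 1280 CPM in female hypoxia and 3909 ± 1200 CPM in female normoxia medullas (SD, n = 5 each), a log2 fold change of -0.30 (SE 0.26), and of -0.09 without replicate 3. Over all 14151 genes tested in the female medulla edgeR called 0%, with 2180 at an unadjusted p under 0.05, and DESeq2 called 53 and limma voom 1.

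In the male medulla the hypoxia and normoxia means of each gene differed by less than the SD of the normoxia group. C1qa averaged 2998 ± 273 CPM in male hypoxia and 3283 ± 635 CPM in male normoxia medullas (SD, n = 5 each). C3 averaged 3564 ± 453 CPM in male hypoxia and 4169 ± 911 CPM in male normoxia medullas. The log2 fold changes of the 4 genes ran from -0.20 for C3 (SE 0.26) to -0.02 for ENSRNOG00000012749 (SE 0.28). These SE use a spread shared by all medulla libraries, female ones included. Without female hypoxia medulla replicate 3 the values were -0.22 for C3 and -0.03 for ENSRNOG00000012749, each with an SE of 0.19. Calls over all genes were 0% by edgeR, with 122 genes at an unadjusted p under 0.05 and 0 called by DESeq2 or limma voom. The interaction of sex and exposure in the medulla was called for 0% of genes by edgeR, with 879 at an unadjusted p under 0.05, 2 by DESeq2 and 1 by limma voom. The complement genes had interaction values of -0.44 to 0.30 there, with SE of 0.34 to 0.44.

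In females the exposure difference also differed between regions. The cord response minus the medulla response was 1.13 (SE 0.35) for C1qa and 1.12 (SE 0.28) for ENSRNOG00000012804 on the log2 scale, with edgeR adjusted p values of 0.0199 and 0.00606 over 14832 genes. This fit had no term for animal, although each animal gave both regions. ENSRNOG00000012749 had 0.36 (SE 0.31) and an adjusted p of 0.439, and 0.76 with an adjusted p of 0.0177 once female hypoxia medulla replicate 3 was left out. C3 had 0.08 (SE 0.31), and -0.15 without that library. Without it C1qa had 0.88 and ENSRNOG00000012804 0.95, both still called. Of the 4 genes 2 were called, against 20.8% of all genes. In a fit of only the 20 female libraries C1qa had an adjusted p of 0.099 and ENSRNOG00000012804 0.0506. Scaled by library totals alone, the median of all genes in this contrast was -0.16, and both calls held. In males the same contrast lay between -0.24 and -0.07 for the 4 genes, and it was called for 0% of all genes by edgeR, with 279 at an unadjusted p under 0.05 and 0 called by DESeq2 or limma voom.

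Sex differences of the C1q chains in the cord were of opposite sign in the 2 exposures. The labels do not say which female and male were littermates, and the fits treat all animals as independent. Among normoxia offspring C1qa averaged 2171 ± 322 CPM in female and 3234 ± 567 CPM in male cords, and ENSRNOG00000012749 1437 ± 229 CPM in female and 2012 ± 164 CPM in male cords (SD, n = 5 each), with every female library below every male library for both. The log2 differences, female minus male, were -0.63 (SE 0.13, edgeR adjusted p 0.0142) and -0.54 (SE 0.12, adjusted p 0.0171). ENSRNOG00000012804 had -0.46 (SE 0.14) with an adjusted p of 0.0502, and C3 -0.33 (SE 0.16) with 0.232. Of the 4 complement genes 2 were called, against 6.56% of all genes. By edgeR 23.5% of all genes had an unadjusted p under 0.05, and the share with separated libraries was not counted. Without female normoxia cord replicate 5 the call of ENSRNOG00000012749 was lost, at an adjusted p of 0.0586. With all 40 libraries in the fit both calls were lost, at adjusted p values of 0.21 for C1qa and 0.226 for ENSRNOG00000012749.

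Among hypoxia offspring ENSRNOG00000012804 averaged 1212 ± 196 CPM in female and 955.7 ± 114 CPM in male cords (SD, n = 5 each). Its log2 difference was 0.47 (SE 0.14), with an edgeR adjusted p of 0.0249. C1qa had 0.38 (SE 0.13) and ENSRNOG00000012749 0.31 (SE 0.12), with adjusted p values of 0.0509 and 0.0673, and C3 had -0.27 (SE 0.16). Of the 4 genes 1 was called, against 19.6% of all genes, a share near the background. That call was lost when any of 6 single libraries was left out: male hypoxia cord replicates 1, 3, 4 and 5 (adjusted p 0.0673, 0.0603, 0.0731 and 0.0558) and female hypoxia cord replicates 2 and 3 (0.0868 and 0.0699). It was also lost with library totals alone, at an adjusted p of 0.0631, where the median of all genes was -0.10. In the medulla no complement gene was called by sex in hypoxia offspring, where 0.0777% of all genes were called, or in normoxia offspring, where 0.0707% were.

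C3 was higher in the cord than in the medulla in every group of sex and exposure. The cord library had more C3 than the medulla library of the same animal in 20 of 20 animals, by a median of 1.69-fold and between 1.14-fold and 3.35-fold in CPM. The highest ratio came from the animal of female hypoxia medulla replicate 3, and the next, 2.74-fold, from male normoxia replicate 3. In male hypoxia offspring C3 had 5718, 6301, 6780, 6535 and 7716 CPM in cords, against 3365, 4020, 2997, 4038 and 3398 CPM in medullas. In male normoxia offspring it had 7119, 8138, 9753, 7236 and 7679 CPM in cords, against 3060, 5381, 3555, 4190 and 4660 CPM in medullas. The regions did not overlap in either male group. In female hypoxia offspring cords had 3606 to 6353 CPM, against medullas at 4153, 3167, 1107, 3481 and 4279 CPM, and 3 of 5 cords lay above all medullas. In female normoxia offspring cords had 5373 to 9295 CPM, against medullas at 4447, 4119, 3010, 2473 and 5496 CPM, and 4 of 5 cords lay above all of them.

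Averaged over the 4 groups of sex and exposure, C3 was higher in the cord by 0.84 (SE 0.11) on the log2 scale, with an edgeR adjusted p of 3.85e-07. The region fits had no term for animal, so their SE and p values take no account of the pairing of regions. It was called in each group, at 0.80 (SE 0.22, adjusted p 0.00856) in female hypoxia, 0.72 (SE 0.22, adjusted p 0.0479) in female normoxia, 0.90 (SE 0.22, adjusted p 0.0102) in male hypoxia and 0.96 (SE 0.22, adjusted p 0.00943) in male normoxia offspring. The share of all genes called was 24.4% for the average, 26.2% in female hypoxia, 5.87% in female normoxia, 7.76% in male hypoxia and 6.55% in male normoxia. The call in female normoxia lay near the threshold: it was lost in 30 of the 40 fits that left out 1 library, with adjusted p values up to 0.154 without female normoxia cord replicate 5, and held with animal as a block. In female hypoxia the call was lost in a fit of only those 10 libraries, at an adjusted p of 0.174. Without medulla replicate 3 the difference there was 0.59 and still called.

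**Figure D4:**
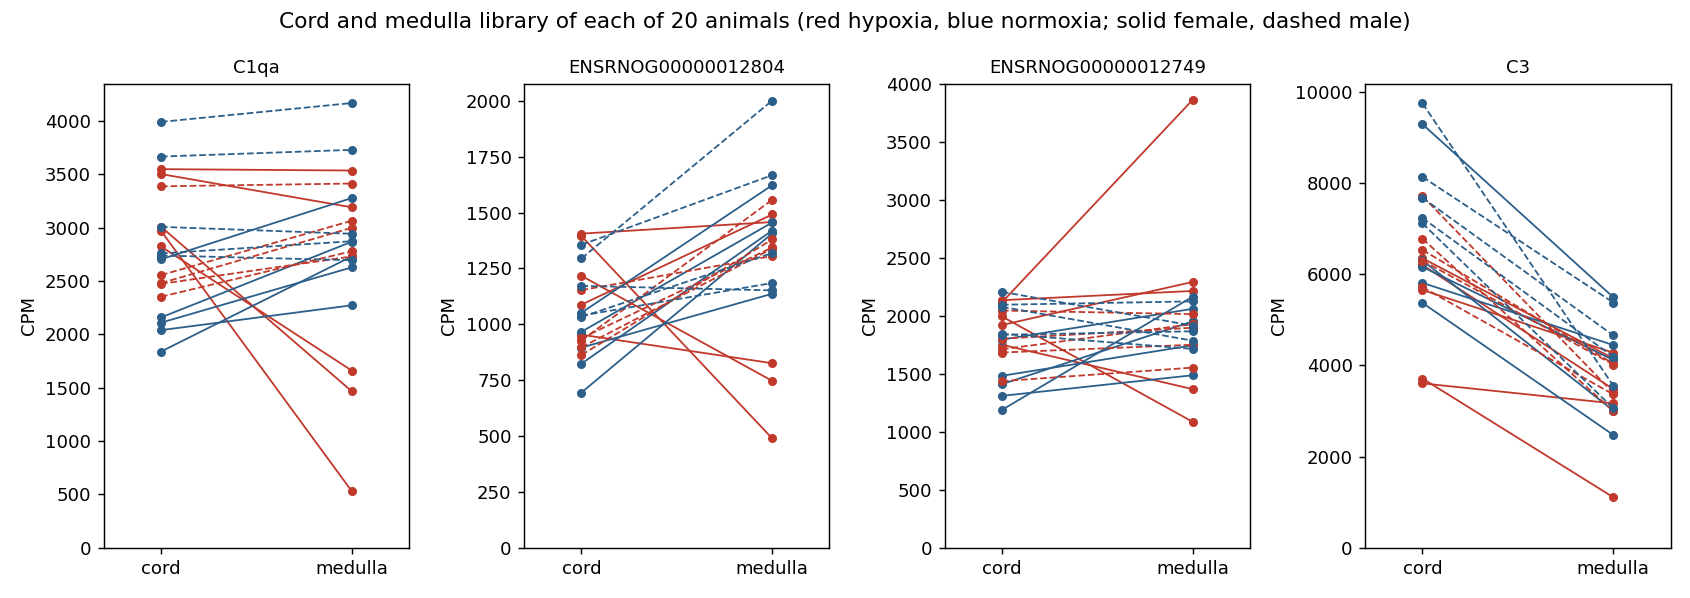
Level in CPM of each complement gene in the cord and the medulla library of each of the 20 animals, joined by a line per animal (red hypoxia, blue normoxia, solid female, dashed male). C3 is higher in the cord in 20 of 20 animals, ENSRNOG00000012749 in 6 and ENSRNOG00000012804 in 4. C1qa is higher in the cord in 6 animals and, at 3550 against 3537 CPM, barely so in a further one.

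The C1q chains gave no regional call shared by the 4 groups. C1qa was higher in the cord in 6 of 20 animals. It was barely so in a further animal, female hypoxia replicate 5, at 3550 CPM in the cord and 3537 CPM in the medulla. The averaged log2 difference of C1qa was 0.05 (SE 0.12). In female hypoxia offspring it was called higher in the cord at 0.75 (SE 0.25, edgeR adjusted p 0.0244), but the adjusted p was 0.0589 without medulla replicate 3, 0.07 without medulla replicate 1, 0.0819 without medulla replicate 4 and 0.0671 without cord replicate 2. With library totals alone the median of all genes there was -0.16 and C1qa had an adjusted p of 0.0648. ENSRNOG00000012749 was called in no group by region, and its averaged difference was -0.11 (SE 0.11), or 0.01 without female hypoxia medulla replicate 3. ENSRNOG00000012804 was lower in the cord by the average, at -0.28 (SE 0.10, adjusted p 0.0356), and higher in the cord in 4 of 20 animals. That call was lost in 13 of 40 fits that left out 1 library, with adjusted p values up to 0.071. In female normoxia offspring ENSRNOG00000012804 had 1052, 966.7, 823.9, 694.6 and 895.8 CPM in cords, against 1623, 1456, 1420, 1407 and 1137 CPM in medullas, without overlap. The log2 difference was -0.71 (SE 0.20, adjusted p 0.0294), and leaving out 1 library raised the adjusted p to between 0.0558 and 0.0966 in 5 cases, female normoxia medulla replicates 1 and 2 and cord replicates 3, 4 and 5. In female hypoxia offspring it had 0.40 (SE 0.20, adjusted p 0.128), or 0.50 with an adjusted p of 0.0475 with animal as a block. Without medulla replicate 3 it had 0.26.

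Counted against C1qa within the same animals and averaged over all 20, ENSRNOG00000012804 was lower and C3 higher in the cord. The log2 ratio of ENSRNOG00000012804 to C1qa differed by -0.36 (SD 0.24 over 20 animals), cord minus medulla, and was higher in the cord in 2 of 20 animals. The sign-flip permutation test gave a p of 1e-05, the smallest that 100000 resamples can give, and 3e-05 adjusted over 3 tests. The ratio of C3 to C1qa differed by 0.76 (SD 0.63), higher in the cord in 17 of 20 animals, with a permutation p of 0.00014 and 0.00021 adjusted. The 3 exceptions were all female hypoxia animals, whose geometric mean was 1.57 C3 counts per C1qa count in the cord and 1.72 in the medulla. In the other 3 groups it was 3.00 in the cord and 1.37 in the medulla of female normoxia, 2.50 in the cord and 1.18 in the medulla of male hypoxia, and 2.48 in the cord and 1.26 in the medulla of male normoxia animals, with the cord higher in 5 of 5 animals of each. For ENSRNOG00000012749 the difference was -0.17 (SD 0.77) with a permutation p of 0.436, and -0.01 (SD 0.19, permutation p 0.878) over the 19 animals without that of female hypoxia medulla replicate 3. Without that animal ENSRNOG00000012804 had -0.33 (SD 0.20) and C3 0.84 (SD 0.53), with adjusted permutation p values of 6e-05 for both.

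Animals with more C1qa in the cord also tended to have more in the medulla. After removal of group means, C1qa in medulla and cord correlated over 20 animals with a Pearson r of 0.57 and a Spearman rho of 0.72, with permutation p values of 0.00276 and 0.00118, or 0.011 and 0.00472 adjusted over the 4 genes. Without the 2 animals farthest from the median r was 0.79. C3 had an r of 0.58 and a rho of 0.59 (permutation p 0.0267 and 0.0171, adjusted 0.0534 and 0.0342), and r was 0.37 without the 2 farthest animals, so its relation rests on those animals. ENSRNOG00000012749 had an r of 0.37 and a rho of 0.45 (permutation p 0.154 and 0.0769, adjusted 0.206 and 0.103), and ENSRNOG00000012804 0.17 and 0.15 (permutation p 0.59 and 0.608, adjusted to the same values). Without the 2 farthest animals their r was 0.48 and 0.16. Without the animal of female hypoxia medulla replicate 3, C1qa had an r of 0.72 and a rho of 0.81 (adjusted permutation p 0.00256 and 0.003). C3 then had an r of 0.42 and a rho of 0.41, with adjusted permutation p values of 0.272 and 0.161, so neither stayed under 0.05.

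In the cord and, without female hypoxia medulla replicate 3, in the medulla, pairs of C1q chains tended to vary together from animal to animal. In neither region did any correlation of a chain with C3 have an adjusted permutation p under 0.05. In the cord, r over 20 libraries was 0.73 between C1qa and ENSRNOG00000012749 and 0.73 between ENSRNOG00000012804 and ENSRNOG00000012749, with permutation p values of 0.00083 and 0.00133, or 0.00498 and 0.00532 adjusted over 12 pairs of genes and regions. The matching rho values were 0.66 and 0.73 (adjusted 0.0145 and 0.00984), and r without the 2 farthest libraries was 0.59 and 0.64. C1qa and ENSRNOG00000012804 had an r of 0.54 and a rho of 0.54 in the cord (permutation p 0.0239 and 0.0232, adjusted 0.0718 and 0.0537), and an r of 0.58 without the 2 farthest libraries. In the medulla C1qa and ENSRNOG00000012804 had an r of 0.93 and a rho of 0.98 (permutation p 1e-05, the smallest the resampling can give, adjusted 0.00012 for both), and 0.96 without the 2 farthest libraries. Between C1qa and ENSRNOG00000012749 in the medulla r was -0.11 with all 20 libraries and 0.94 without female hypoxia medulla replicate 3, and between ENSRNOG00000012804 and ENSRNOG00000012749 it was 0.18 and 0.90. Those 2 values without the library had adjusted permutation p values of 0.00018 and 0.00024. C3 had r values of -0.27 to 0.05 with the chains in the cord and of -0.55 to 0.55 in the medulla, and of -0.05 to 0.04 in the medulla without that library. These correlations share library depth and scaling.

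The genes whose deviations from group means followed the mean of the 3 C1q chains most closely over the 40 libraries were ENSRNOG00000017417 (r = 0.86) and ENSRNOG00000021100 (r = 0.85), outside the C1q chains themselves. Those nearest to C3 were ENSRNOG00000019742 (r = 0.84) and ENSRNOG00000004337 (r = 0.82), which had 0.72 and 0.74 without female hypoxia medulla replicate 3. Without that library the nearest to the C1q mean were ENSRNOG00000058484 and ENSRNOG00000014846, both at r = 0.89. The libraries share depth and scaling, and the values describe likeness only.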

How the data were processed

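RNA-seq counts of 40 microglial libraries were used as deposited: the authors' table holds raw counts, whole reads per Ensembl gene. The submitters' processing notes name build rn6 and, in no stated role, edgeR, HTSeq and TopHat2 2.1. Annotation release, strandedness and filters: not given in the sources used here. Reads of overlapping or nearly identical genes could therefore be misassigned. The table had 0 rows that name no gene and 0 columns of other samples. No library duplicated another (chi-square over its degrees of freedom at least 10.9 within groups). CPM are counts scaled to totals of 1000000 reads.

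Tests used edgeR 4.0.16 in R 4.3.3 (quasi-likelihood F, TMM, filterByExpr with minimum count 10, Benjamini-Hochberg over all genes tested, threshold 0.05), checked on simulated data. Exposure, sex and their interaction were fitted on the 20 libraries of a region (13593 genes in the cord, 14151 in the medulla), and region on all 40 (14832 genes). The fits of region and of region by exposure held no term for animal, which entered only as the block among the alternatives. In all, 17 comparisons were made. The SE of each edgeR log2 difference was taken as its absolute value divided by the square root of F. Alternatives were RLE factors, library totals, no filter, DESeq2 1.42.0 and limma 3.58.1 voom with quality weights. Every voom result given here is of that weighted form. Further alternatives were a replicate block, other sets of libraries, and single libraries left out. Ratios to C1qa used exact permutation tests by exposure and 100000 random sign flips over animals by region. Correlations used log2 CPM with prior count 2 and 100000 resamples within groups.

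The 2 libraries of an animal are pairs by the series design: their deviations from group means correlated positively in 20 of 20 animals (0.0673 to 0.424).

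The genes named are the 4 complement genes and the 2 most like each pattern. The other complement genes and the cell type markers chosen for counting were not used, since 0 of 32883 IDs matched a symbol. The genes, lists and tests were chosen with earlier results of these data known. Replicates are separate animals, whose number limits the precision.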

Additional observations from a re-analysis of the deposited data

Results flagged for a closer look

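Of 56 sets of 5 libraries (4 genes in CPM and 3 ratios to C1qa, in 8 groups), 5 held a value far from the other 4, where chance gives about 1 set in 20. C1qa stood at 3389 CPM in male hypoxia cord replicate 5, above the other libraries of its group at 2353 to 2556 CPM. C3 stood at 9295 CPM in female normoxia cord replicate 5, above 5373 to 6304 CPM in the rest of its group. ENSRNOG00000012804 stood at 1153 CPM in male hypoxia cord replicate 2, above 863 to 938 CPM. In female hypoxia medulla replicate 3, the shallowest library, the log2 ratio of ENSRNOG00000012749 to C1qa was 2.87, where the other 4 libraries had -0.63 to -0.28. The log2 ratio of ENSRNOG00000012804 to C1qa was -0.12 in the same library, against -1.25 to -0.97 in the others.

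Exposure responses that differed between groups were those of the C1q chains. In the cord the female response exceeded the male response by 1.00 for C1qa, 0.93 for ENSRNOG00000012804 and 0.85 for ENSRNOG00000012749 on the log2 scale. In females the cord response exceeded the medulla response by 1.13 for C1qa and 1.12 for ENSRNOG00000012804. These differences come from the edgeR interaction tests given in the report.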

How the results depend on the processing

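All 99 results were recomputed. This gave 564 values under another setting (16 calls lost, 14 gained) and 2116 with a library or animal left out (59 lost, 17 gained). C1q rises in the female cord held in every alternative and left-out fit run. Of 63 sign changes, 62 were in results never called. The cause was not tested. Values are log2 differences unless named.

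For the sex difference in hypoxia cords, ENSRNOG00000012804 lost its call with library totals (0.34), all 40 libraries (0.46) and only the compared groups (0.43), and C1qa gained one with DESeq2 (0.37), voom (0.39) and the replicate block (0.38). In normoxia cords ENSRNOG00000012804 gained a call with DESeq2 (-0.46), voom (-0.51), the replicate block (-0.46) and only the compared groups (-0.47), C3 with voom (-0.41), and with all 40 libraries C1qa (-0.62) and ENSRNOG00000012749 (-0.53) lost theirs. With all 40 libraries the sex by exposure calls of C1qa (1.00) and ENSRNOG00000012749 (0.84) in the cord were lost. By region in female hypoxia, C1qa lost its call with library totals (0.61), voom (0.58), the shallowest medulla library left out (0.52) and only the compared groups (0.74), C3 with only the compared groups (0.79), and ENSRNOG00000012804 gained one with the replicate block (0.50). In female normoxia C3 lost its call with library totals (0.75) and without the filter (0.71), and ENSRNOG00000012749 gained one with voom (-0.45). In male hypoxia ENSRNOG00000012804 gained a call with voom (-0.49) and only the compared groups (-0.52). For region by exposure in females, ENSRNOG00000012749 gained a call with voom (0.70) and the shallowest library left out (0.76), and only the female libraries ended those of C1qa (1.09) and ENSRNOG00000012804 (1.06). Without that library correlations of ENSRNOG00000012804 with C1qa in the cord (0.54) and with ENSRNOG00000012749 in the medulla (0.90) gained calls. That of C1qa with ENSRNOG00000012749 in the medulla turned to 0.94.

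With each library left out, ranges where a call changed were -0.31 to -0.23 for ENSRNOG00000012804 by region on average, 0.52 to 1.06 for C1qa and 0.26 to 0.62 for ENSRNOG00000012804 in female hypoxia, 0.56 to 0.84 for C3 and -0.80 to -0.64 for ENSRNOG00000012804 in female normoxia, and 0.13 to 0.76 for ENSRNOG00000012749 in region by exposure in females. By sex they were 0.30 to 0.45 for C1qa, 0.22 to 0.37 for ENSRNOG00000012749 and 0.37 to 0.55 for ENSRNOG00000012804 in hypoxia cords, and -0.65 to -0.50 for ENSRNOG00000012749 and -0.55 to -0.41 for ENSRNOG00000012804 in normoxia cords.

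The replicate block changed 3 of 80 calls. Within a region same-numbered libraries correlated over 0.1 in 6 of 20 hypoxia and normoxia pairs (-0.398 to 0.395) and in 12 of 20 female and male pairs (-0.409 to 0.716). Numbers were thus not taken as pairs there; whether they mark litters is not known. Counts over all genes moved by over 1.5 times. With all 40 libraries, sex by exposure in the cord gave 1562 calls against 3155, sex in hypoxia cords 992 against 2662, sex in normoxia cords 122 against 892, female medulla exposure 513 against 0 and sex in hypoxia medullas 333 against 11. Sex in normoxia cords gave 592 calls without the filter and 1577 by DESeq2. DESeq2 gave 41 and 16 by sex in hypoxia and normoxia medullas (voom 26 in normoxia, against 10), and 1459 and 1583 by region in female and male normoxia, against 870 and 972. Voom gave 1712, 2659 and 2008 by region in female hypoxia, female normoxia and male normoxia, against 3886, 870 and 972. Without the shallowest library region gave 1812, 1849 and 1937 in female normoxia, male hypoxia and male normoxia, against 870, 1151 and 972. Only the compared groups gave 132 in female hypoxia and 1944, 703 and 1629 in those 3, against 3886, 870, 1151 and 972. For region by exposure in females they gave 1083 against 3078. Library totals split calls into 1289 higher and 2374 lower for sex by exposure in the cord (1790 and 1365 with TMM), 1019 and 1862 for sex in hypoxia cords (1551 and 1111), 661 and 357 in normoxia cords (432 and 460), 1196 and 2821 for region in female hypoxia (1881 and 2005), 1134 and 2188 for region by exposure in females (1665 and 1413) and 970 and 2522 for the average region difference (1409 and 2213). The lowest complement gene count was 2964; 5 animals per group limit precision.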
